A study of Mus musculus with 15 samples.

Results

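The comparison described here set mice that had undergone back surgery, with or without injury of the spinal cord, against mice that had undergone none, and asked which genes of skin-innervating sensory neurons differed in the operated mice whichever operation they had. Its members were all 10 surgery libraries (5 sham and 5 SCI), the 5 naïve libraries, and the 16000 genes, of 54108 gene symbols in the table, whose mean over the 15 libraries was at least 1. SCI mice received a laminectomy at T10 under isoflurane and then compression of the exposed cord with a vessel clip. Sham mice received the laminectomy alone. Both were given gentamicin, saline over 4 days and no analgesic, and were caged singly, whereas naïve mice were not operated on and were housed in groups. All were female C57BL/6J mice aged 8 to 12 weeks whose hairy hindpaw skin had been injected with the tracer WGA-488, 2 days before surgery in the operated mice. Ganglia L2 to L6 were taken 4 days after surgery, and each mouse gave 1 library made from about 3000 sorted cells that carried the tracer. The operation, the anesthesia and drugs that went with it, and the housing cannot be told apart in this design.

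Dorsal root ganglia hold the cell bodies of sensory neurons that send one branch to the skin and another to the spinal cord. Among the small neurons of the skin, the non-peptidergic nociceptors bind neurturin through GFRα2 and RET and carry receptors such as MRGPRD and P2X3, whereas peptidergic nociceptors release CGRP and substance P. A laminectomy removes muscle and bone over the cord without cutting the nerves of the hindpaw. A gene that differs alike in sham and SCI mice differs between operated and naïve mice, which also differ in drugs and housing. How far sham and SCI mice are alike can be judged only within the interval of SCI minus sham.

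The deposited values were reads divided by 1 constant for each library. Libraries held 2568656 to 7389487 reads in sham, 3000636 to 4385542 in SCI and 1321632 to 7465583 in naïve mice, with medians of 5815348, 3698926 and 2532675. These are reads counted on genes, not all reads sequenced, and depth here means this count. The first principal component took 36.48% of the variance and ordered the libraries largely by depth. At its ends stood the shallow naïve 1 and naïve 4 on one side and the deep sham libraries on the other. Sham 2, with 2568656 reads, lay apart from the remaining sham mice and toward the shallow naïve mice, and naïve 5, with 7465583 reads, lay among the deep sham libraries. Depth therefore moved with the comparison. A fit with log2 reads as a term and a fit without naïve 1 and naïve 4 are given below beside the results they touch most.

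In operated mice the 12 genes of non-peptidergic nociceptors had lower mean log2 values than in naïve mice after both operations, and single genes such as Rap2b, Il17ra and Adcy2 had higher ones. No gene passed the adjusted test of surgery against naïve. With limma and Benjamini-Hochberg adjustment over the 16000 genes, 0 were higher and 0 lower at an adjusted p under 0.05 (0% in each direction), and the smallest adjusted p was 0.429. At an unadjusted p under 0.05, 1599 genes (9.99%) were higher and 218 (1.36%) lower in surgery mice. The median log2 difference of all genes was 0.13, and 12080 genes (75.5%) had a positive and 3920 (24.5%) a negative difference. The count of called genes depended on 1 mouse: without naïve 5, 644 genes were higher and 264 lower at an adjusted p under 0.05. Leaving out any other single library gave 0 in both directions. edgeR and DESeq2 on the recovered reads also called 0 genes. DESeq2 gave some genes no adjusted p, among them Grik1 (DESeq2 unadjusted p = 7.9e-07), so its 0 does not cover them. At an unadjusted p under 0.05, edgeR gave 372 higher and 589 lower and DESeq2 302 higher and 791 lower. With log2 reads as a term, 236 genes were higher and 281 lower at an unadjusted p under 0.05, and the median difference of all genes was 0.02.

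Taken apart, both operations were set against the same 5 naïve mice. Sham against naïve had 2651 genes (16.6%) at an unadjusted p under 0.05 with a smallest adjusted p of 0.300, and SCI against naïve had 724 (4.52%) with a smallest adjusted p of 0.898. At an unadjusted p under 0.05 in both, 328 genes (2.05%) were higher and 24 (0.15%) lower. Since the naïve mice are shared, a naïve library that stands apart moves both differences at once, and these joint counts are given as descriptions. The difference SCI minus sham does not use the naïve mice. It reached an unadjusted p under 0.05 for 48 of the 1599 higher genes (3%) and for 11 of the 218 lower genes (5.05%), against 623 of all genes (3.89%). The 95% interval of SCI minus sham reached 0.40 log2 units to either side of its centre in the higher genes and 0.39 in the lower genes (medians), so for most of them a moderate difference between the operations could not be seen with 5 mice each.

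Among the 10 higher genes with the smallest p, the difference between surgery and naïve mice ran from 0.31 to 0.95 log2 units, and sham and SCI mice differed from naïve by 0.35 to 1.03 and by 0.27 to 0.86. Rap2b encodes a small GTPase of the Ras family (ENSMUSG00000036894, mm10 chromosome 3, 61361638 to 61368430). Its values were 20.2, 17.9, 18.8, 22.1 and 22.1 in sham mice and 18.1, 16.5, 23.7, 20.7 and 16.4 in SCI mice, against 9.49, 12, 11.2, 8.04 and 16.7 in naïve mice. The groups overlapped only through naïve 5, whose value exceeded 2 SCI libraries. The log2 difference was 0.75 (SE 0.16, limma adjusted p = 0.429, exact permutation p = 0.002, two-sided, 10 against 5 libraries), and SCI minus sham was -0.09 with a 95% interval of -0.47 to 0.29. It was 0.55 with log2 reads as a term and 0.54 without naïve 1 and naïve 4.

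Il17ra encodes a receptor subunit for interleukin-17 (ENSMUSG00000002897, mm10 chromosome 6, 120463247 to 120487559). It had 22.2, 13.4, 17.5, 15.2 and 15.3 in sham mice and 16.7, 22.2, 26, 16.5 and 16.7 in SCI mice, against 9.49, 9.73, 10.3, 11 and 13.6 in naïve mice. Sham 2, the lowest surgery library, lay just under naïve 5, and every other surgery library lay above every naïve one. The log2 difference was 0.68 (SE 0.15, limma adjusted p = 0.429, exact permutation p = 0.00133), with 0.57 in sham and 0.79 in SCI mice, and it was 0.55 with log2 reads as a term and 0.64 without naïve 1 and naïve 4. The depth behind both genes was small, with 1068 reads of Rap2b and 971 of Il17ra over the 15 libraries.

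The remaining higher genes were higher than in naïve mice after both operations, by amounts not always alike. Exosc5 differed by 0.48 in sham and 0.28 in SCI mice, and Lmo7 by 0.75 and 0.83. For surgery as a whole, Lmo7, which encodes a LIM domain protein, differed by 0.79. Anapc10, a subunit of the anaphase-promoting complex, differed by 0.51, and Sema3c, a secreted semaphorin, by 0.45. Snx14, a sorting nexin, differed by 0.31, Exosc5, a subunit of the RNA exosome, by 0.38, and Aph1c, a subunit of γ-secretase, by 0.76. Smim3 differed by 0.74 and 6530402F18Rik by 0.95. For all 10 higher genes the 95% interval of SCI minus sham held 0, and it reached 0.20 to 0.60 to either side. All 10 kept their sign and an unadjusted p under 0.05 with log2 reads as a term. All 10 also had an adjusted p under 0.05 once naïve 5 was left out (4.03% of all genes were higher at that level). They were picked by their p in these same libraries, so the refits are no independent test of them. The sizes moved with depth for Sema3c (0.26 with log2 reads as a term and 0.26 without naïve 1 and naïve 4), 6530402F18Rik (0.61 and 0.51) and Aph1c (0.47 and 0.57).

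**Figure D1:**
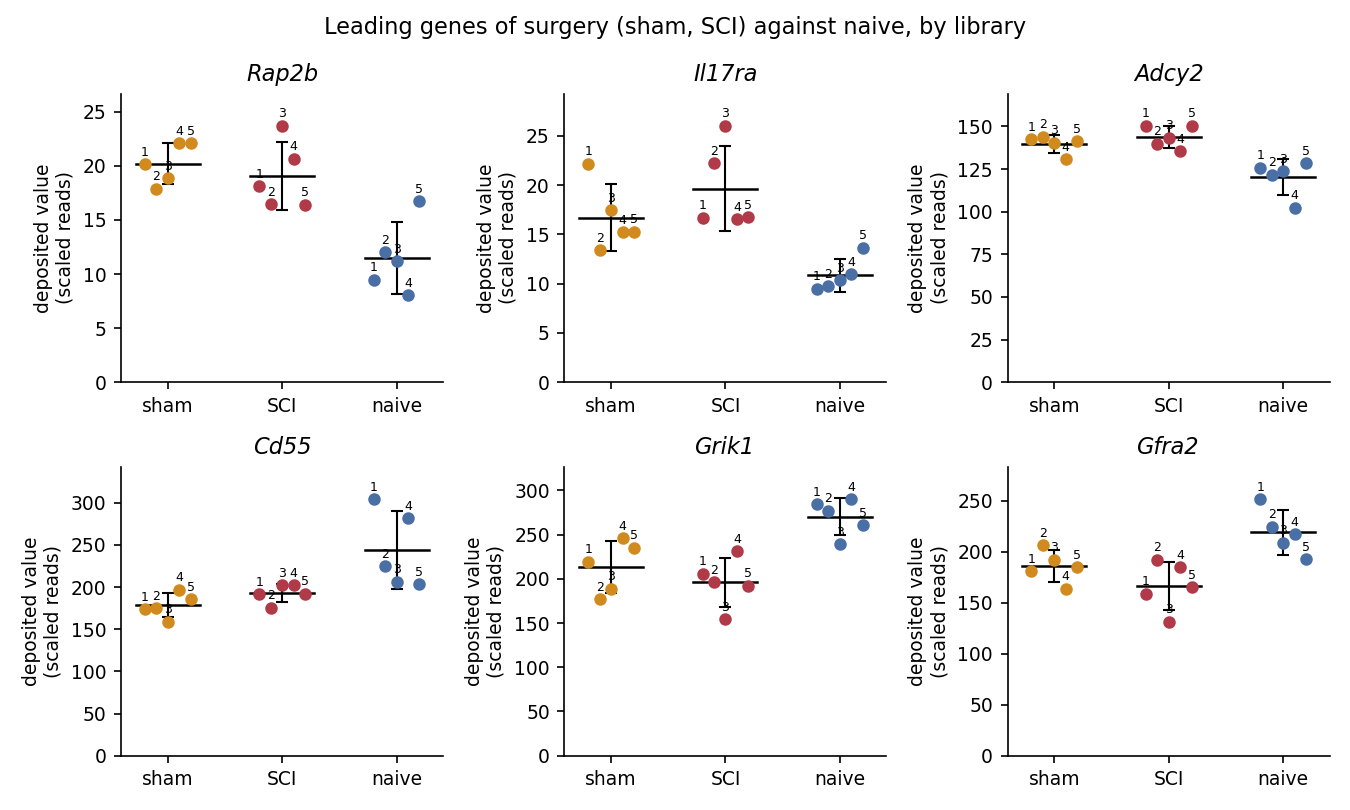
Deposited values (reads scaled by library, y axis) of 6 genes in each sham, SCI and naïve library (points, numbered by mouse), with the group mean (line) and SD (bar). All 10 surgery libraries lie above all naïve libraries for Adcy2 and below all of them for Cd55. For Rap2b and Il17ra the naïve mouse nearest the surgery mice is naïve 5.

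A total of 4 genes (0.025%) had all 10 surgery libraries above all 5 naïve libraries, and 1 gene (0.00625%) had all 10 below. The higher ones were Adcy2, Neurl1b, 4933439C10Rik and E230014E18Rik, which averaged only 1.19. Adcy2 encodes an adenylyl cyclase, an enzyme that makes cyclic AMP (ENSMUSG00000021536, mm10 chromosome 13, 68620043 to 68999541). Its values were 142, 144, 141, 131 and 142 in sham mice and 150, 140, 143, 136 and 150 in SCI mice, against 126, 122, 124, 102 and 129 in naïve mice. The gap between the lowest surgery library, sham 4, and the highest naïve library, naïve 5, was narrow, and naïve 4 stood well below the other naïve mice. The log2 difference was 0.24 (SE 0.06, limma adjusted p = 0.429, exact permutation p = 0.000666, the smallest that 3003 assignments allow), with SCI minus sham at 0.04 and an interval of -0.12 to 0.20. It was 0.21 with log2 reads as a term and 0.19 without naïve 1 and naïve 4, but 0.15 with TMM scaling, 0.15 with edgeR and 0.14 with DESeq2, none of these 3 at an unadjusted p under 0.05. The exact p restates the lack of overlap by which Adcy2 was picked, since every gene without overlap takes it.

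Neurl1b, an E3 ubiquitin ligase, had 13.1, 8.13, 12, 8.69 and 8.94 in sham mice and 9.33, 7.63, 8.90, 9.04 and 9.07 in SCI mice, against 5.53, 7.46, 6.62, 2.19 and 7.17 in naïve mice. The groups did not overlap, but naïve 4 rested on 3 reads. Its difference of 0.69 was 0.45 with log2 reads as a term and 0.36 without naïve 1 and naïve 4, where it no longer reached an unadjusted p of 0.05. 4933439C10Rik averaged 33.0 ± 4.97 in sham, 30.3 ± 3.73 in SCI and 24.2 ± 1.90 in naïve mice (SD, n = 5 each).

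The 10 lower genes with the smallest p held receptors, a sodium channel and signaling proteins, with differences from -0.23 to -1.41 log2 units. Cd55 encodes decay-accelerating factor, a complement regulator on the cell surface that also marks non-peptidergic neurons (ENSMUSG00000026399, mm10 chromosome 1, 130439027 to 130462744). It had 174, 175, 159, 197 and 186 in sham mice and 192, 176, 202, 202 and 192 in SCI mice, against 304, 225, 206, 282 and 203 in naïve mice. Every surgery library lay below every naïve library, although SCI 3 and SCI 4 came close to naïve 5. The log2 difference was -0.38 (SE 0.09, limma adjusted p = 0.429, exact permutation p = 0.000666), and it was -0.26 with log2 reads as a term and -0.19 without naïve 1 and naïve 4. As for Adcy2, this exact p follows from the lack of overlap.

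Grik1 encodes the kainate receptor subunit GluK1 (ENSMUSG00000022935, mm10 chromosome 16, 87895900 to 88290265). Its values were 219, 177, 189, 246 and 235 in sham mice and 206, 196, 155, 231 and 192 in SCI mice, against 285, 277, 239, 290 and 261 in naïve mice. Sham 4 was the 1 surgery library above the lowest naïve library, naïve 3. The log2 difference was -0.41 (SE 0.10, limma adjusted p = 0.429, exact permutation p = 0.00133), with -0.44 in the fit with log2 reads as a term and -0.35 without naïve 1 and naïve 4. SCI minus sham was -0.12 with a 95% interval of -0.35 to 0.11.

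Fmnl1, a formin that acts on actin, differed by -0.23, Prkar2b, a regulatory subunit of protein kinase A, by -0.27, Tmem45b by -0.39 and Ctxn3 by -0.61. For 9 of the 10 lower genes with the smallest p the 95% interval of SCI minus sham held 0. Gng2, a G protein γ subunit, was the exception: it averaged 173 ± 5.14 in sham, 199 ± 10.3 in SCI and 228 ± 31.9 in naïve mice (SD, n = 5 each), and SCI minus sham was 0.20 with an interval of 0.01 to 0.39. All 10 kept their sign with log2 reads as a term and without naïve 1 and naïve 4, where Tmem45b was -0.17 and no longer reached an unadjusted p of 0.05. Without naïve 5, 9 of them had an adjusted p under 0.05, Mrgprb5 not. These genes too were picked by their p in the same libraries, so the refits are no independent test.

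**Figure D2:**
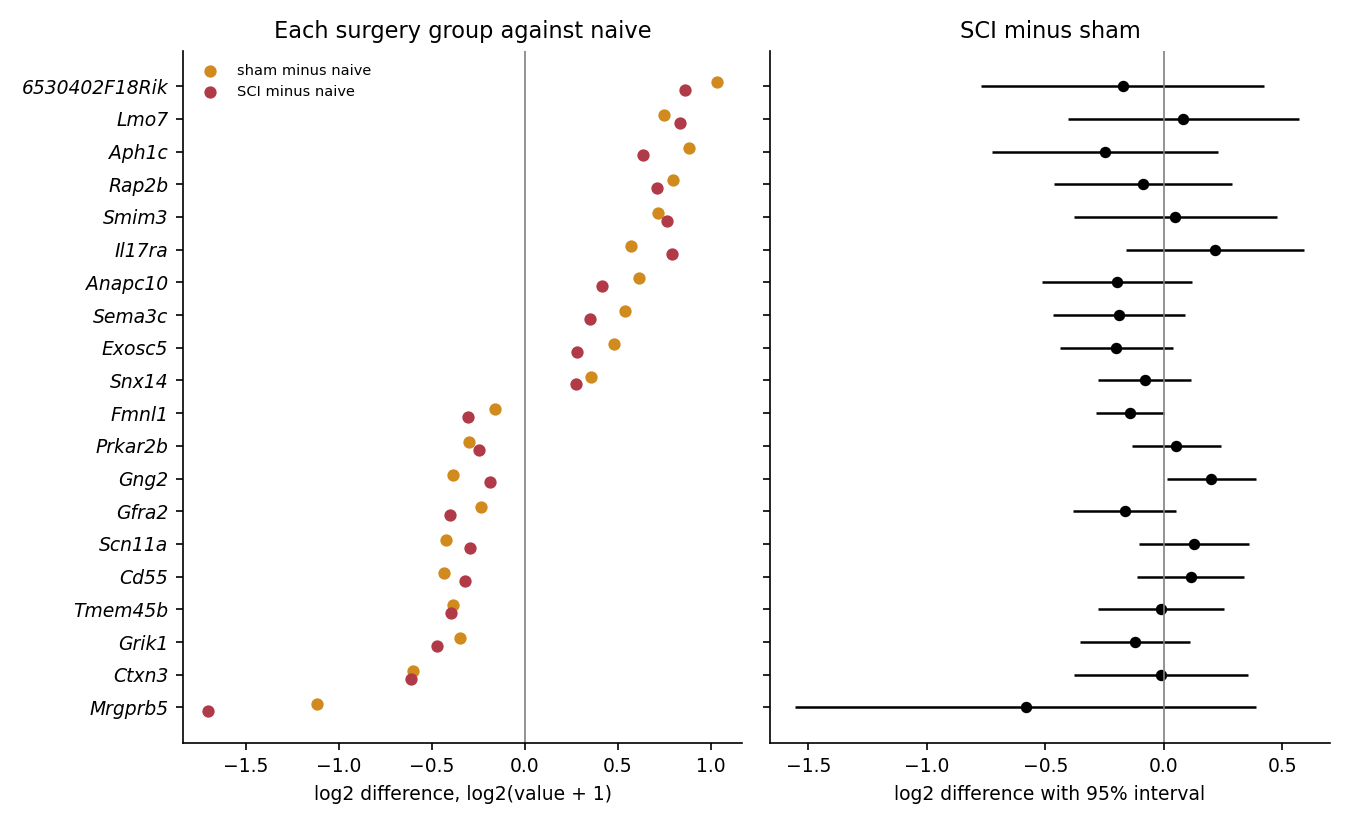
Left, log2 difference of sham minus naïve and of SCI minus naïve for the 10 higher and 10 lower genes with the smallest p. Both use the same naïve mice. Right, SCI minus sham with its 95% interval (line), which holds 0 for all of these genes except Gng2.

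Non-peptidergic nociceptor genes had lower mean log2 values in both sham and SCI mice than in naïve mice. For surgery as a whole they were also lower with depth in the fit, which was not examined for each operation. All 12 members were tested, 12 of 12 had a negative difference, and 8 had an unadjusted p under 0.05, all lower, against 218 of 16000 genes (1.36%). None passed the adjusted test. Their median log2 difference was -0.37 beside 0.13 for all genes, with -0.37 in sham and -0.31 in SCI mice. In bulk libraries, fewer cells of a type and less RNA per cell cannot be told apart. The summed level of the list was 2260, 2210, 2017, 2114 and 2152 in sham mice and 2116, 2231, 2192, 2250 and 2249 in SCI mice, against 3008, 2584, 2426, 3234 and 2470 in naïve mice. The highest surgery library, sham 1, lay below the lowest naïve library, naïve 3, and the deep naïve 5 lay above all 10 surgery libraries.

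The receptors of the list are given first. Gfra2, the neurturin coreceptor (ENSMUSG00000022103, mm10 chromosome 14, 70890120 to 70979838), had 181, 207, 192, 164 and 184 in sham mice and 159, 192, 131, 185 and 165 in SCI mice, against 251, 224, 209, 217 and 192 in naïve mice. Naïve 5 lay within the surgery range and the other naïve mice above it, with a log2 difference of -0.32 (SE 0.09, limma adjusted p = 0.429, exact permutation p = 0.00133) that was -0.25 both with log2 reads as a term and without naïve 1 and naïve 4. Mrgprd, a receptor that defines these neurons, had 133, 31.3, 73.4, 120 and 120 in sham mice and 109, 66.3, 62.6, 101 and 72.9 in SCI mice, against 138, 127, 124, 155 and 173 in naïve mice.

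Sham 1 alone among the surgery libraries overlapped the naïve range of Mrgprd, and sham 2 was by far its lowest library. The log2 difference of Mrgprd was -0.77 (SE 0.25, limma adjusted p = 0.429), -1.08 with log2 reads as a term and -0.75 without naïve 1 and naïve 4. Mrgprb5, a Mas-related receptor, had 11.8, 0.813, 7.65, 17.6 and 11 in sham mice and 5.37, 2.15, 5.93, 7.23 and 4.19 in SCI mice, against 18.2, 14.3, 12.4, 23.4 and 21.5 in naïve mice. All 5 SCI libraries lay below all naïve libraries and 1 sham library, sham 4, did not, with a log2 difference of -1.41 (SE 0.40, limma adjusted p = 0.429, exact permutation p = 0.00333).

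The channels and guidance receptors of the list come next. Scn11a, which encodes the sodium channel Nav1.9, had 450, 523, 425, 425 and 426 in sham mice and 447, 481, 539, 479 and 511 in SCI mice, against 642, 566, 582, 767 and 482 in naïve mice. Of the naïve libraries, only naïve 5 lay within the surgery range. Its difference of -0.36 was -0.20 with log2 reads as a term and -0.21 without naïve 1 and naïve 4. P2rx3, an ATP-gated channel, differed by -0.31 and Plxnc1, a semaphorin receptor, by -0.25, both at an unadjusted limma p under 0.05. They were -0.23 and -0.17 with log2 reads as a term, and -0.10 and -0.13 without naïve 1 and naïve 4, where neither reached an unadjusted p of 0.05. Ret, the signaling partner of the GFRα coreceptors, differed by -0.28, but by only -0.06 with log2 reads as a term and -0.05 without naïve 1 and naïve 4.

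Lpar3 (-0.46), Agtr1a (-0.39) and Runx1 (-0.05) did not reach an unadjusted p of 0.05. Runx1 encodes the transcription factor that sets the identity of these neurons. Its values were 181, 128, 147, 149 and 145 in sham mice and 147, 149, 142, 150 and 124 in SCI mice, against 136, 161, 146, 130 and 186 in naïve mice, and the groups overlapped throughout. With log2 reads as a term, 11 of the 12 genes were lower at an unadjusted p under 0.05, against 1.76% of all genes in that fit, and the list median was -0.26. Without naïve 1 and naïve 4, 12 of 12 were still negative (all genes: 41.2%), 5 were lower at an unadjusted p under 0.05 (all genes: 0.416%) and the median was -0.23. Without naïve 5, 11 of 12 were negative (all genes: 21.8%), 8 were lower at an unadjusted p under 0.05 (all genes: 5.99%), 3 of them at an adjusted p under 0.05 (all genes: 1.65%), and the median was -0.36. SCI minus sham had an interval holding 0 for all 12 genes, was positive for 6, and had a list median of 0.01.

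**Figure D3:**
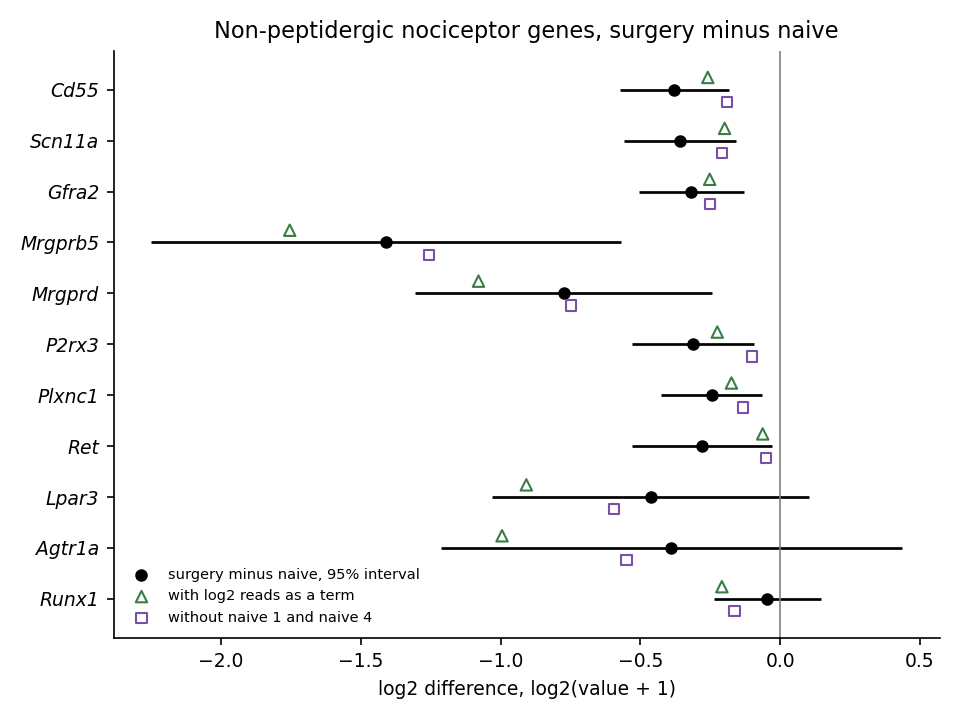
Log2 difference of surgery minus naïve for 11 of the 12 non-peptidergic nociceptor genes, with its 95% interval (black), with log2 reads as a term (triangles) and without naïve 1 and naïve 4 (squares), ordered by p. All points lie below 0. The intervals of Lpar3, Agtr1a and Runx1 reach past 0.

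Several other lists had lower values in the plain comparison but not with depth in the fit. The mitochondrially encoded mRNAs, which specify subunits of the respiratory chain, were negative for 7 of 7 genes (all genes: 24.5%). Of these, 6 had an unadjusted p under 0.05 (all genes lower: 1.36%), and the median was -0.53. Their summed level was 852, 1900, 1112, 1216 and 1004 in sham mice and 1385, 1206, 1600, 1316 and 1589 in SCI mice, against 2960, 1611, 1958, 2774 and 819 in naïve mice. Libraries of like depth had like sums: sham 1 had 852 and naïve 5 had 819, SCI 3 had 1600 and naïve 2 had 1611, and sham 2 had 1900 and naïve 3 had 1958. With log2 reads as a term the median was 0.02 with 0 genes at an unadjusted p under 0.05, and without naïve 1 and naïve 4 it was -0.10.

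The general nociceptor genes did likewise. All 8 were negative (all genes: 24.5%), 4 were lower at an unadjusted p under 0.05 (all genes: 1.36%) and the median was -0.36. That median was 0.03 with log2 reads as a term and -0.02 without naïve 1 and naïve 4. Scn10a, the sodium channel Nav1.8, had 586, 902, 619, 633 and 625 in sham mice and 799, 756, 854, 689 and 912 in SCI mice, against 1154, 856, 886, 1336 and 642 in naïve mice. Naïve 5 lay near the deep sham libraries, and sham 2 near naïve 2 and naïve 3. Calca, which encodes CGRP, differed by -0.47 overall and by 0.03 with log2 reads as a term.

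**Figure D4:**
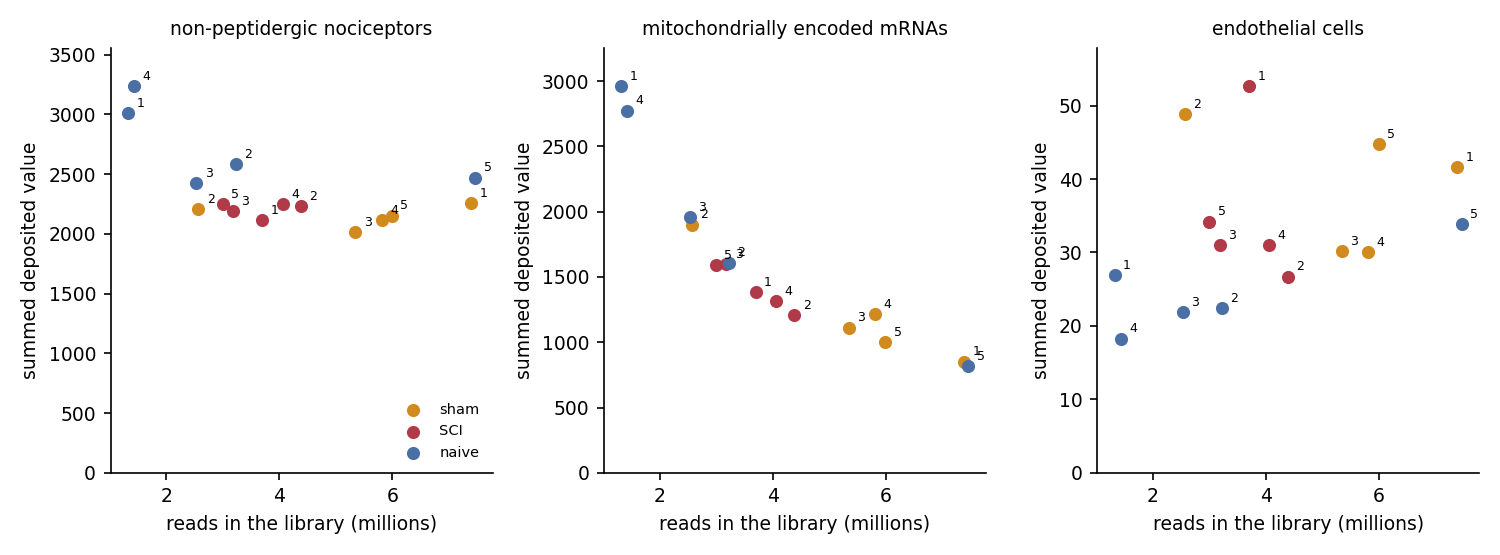
Summed deposited values (y axis) of 3 gene lists against the reads of each library (x axis), for sham, SCI and naïve libraries numbered by mouse. Non-peptidergic nociceptor sums lie at 2017 to 2260 in surgery libraries and at 2426 to 3234 in naïve libraries. Mitochondrially encoded mRNA sums are lower in deeper libraries in all 3 groups.

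Ribosomal protein genes were negative for 75 of 92 members (all genes: 24.5%), with a median of -0.19. Nuclear-encoded respiratory chain genes were negative for 69 of 81, with a median of -0.12. With log2 reads as a term the medians were 0.09 and 0.11. The ribosomal list was matched by symbol and took in 10 genes of S6 kinases, and its 1 higher member at an unadjusted p under 0.05, Rps6kb1, is one of these. Nuclear long noncoding RNAs had a median of -0.22, and of -0.01 with log2 reads as a term. At an unadjusted p under 0.05, 3 of 12 were lower in the plain comparison (all genes: 1.36%), among them Meg3 and Snhg11. The part of depth in these values was not tested beyond these fits.

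Cytokine ligands and receptors lay near the background as a list. Of 28 genes, 22 had a positive difference, against 75.5% of all genes, 5 were higher (all genes: 9.99%) and 1 lower (1.36%) at an unadjusted p under 0.05, and the median was 0.17 beside 0.13 for all genes. Il13ra1, a receptor chain for interleukin-13, had 41.6, 33.7, 29.6, 38.0 and 28.2 in sham mice and 33.9, 41.5, 41.2, 35.4 and 34.9 in SCI mice, against 21.3, 24.3, 18.2, 23.4 and 38.2 in naïve mice. Naïve 5 was the only naïve library within the surgery range. Its log2 difference was 0.53 (SE 0.14, limma adjusted p = 0.429, exact permutation p = 0.00666) and 0.35 with log2 reads as a term.

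Tgfbr1, a TGF-β receptor, differed by 0.51, Tlr4, the receptor for bacterial lipopolysaccharide, by 0.61, and Ccl2, a chemokine that draws monocytes, by 0.51. These were 0.18, 0.28 and 0.44 with log2 reads as a term, none at an unadjusted p under 0.05. Il6st, which encodes the shared signaling chain gp130 of the interleukin-6 family, was the lower member at -0.21, and at -0.08 with log2 reads as a term. With log2 reads as a term, 2 members of the list were higher at an unadjusted p under 0.05 (all genes: 1.48%), Il17ra and Il13ra1. SCI minus sham had an interval holding 0 for 24 of the 28 genes and leaving it out for the rest, against 3.89% of all genes that left it out.

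Genes of axon injury and regeneration were of mixed direction in the plain comparison. Of the 35 tested of 40 listed, 19 were positive (all genes: 75.5%) and 16 negative. At an unadjusted p under 0.05, 5 were higher (all genes: 9.99%) and 1 lower (1.36%), and the median was 0.07. A total of 29 of 35 were positive with log2 reads as a term (all genes: 56.2%), 3 of them at an unadjusted p under 0.05 (all genes: 1.48%), with a median of 0.08, and without naïve 1 and naïve 4 24 were positive (all genes: 58.8%). The median was -0.05 in sham and 0.23 in SCI mice, and 32 of the 35 genes were higher in SCI than in sham mice, 5 of all 35 with an interval of SCI minus sham that left out 0, against 3.89% of all genes, of which 34.3% were higher in SCI than in sham mice. Lists that moved with depth had a like shift, with 74 of 92 ribosomal protein genes and 71 of 81 respiratory chain genes higher in SCI than in sham mice, and sham libraries were the deeper ones. With log2 reads as a term, surgery minus naïve was positive for 84 of these 92 ribosomal protein genes and 76 of these 81 respiratory chain genes. It was also positive for 20 of 23 cholesterol synthesis genes, but only for 10 of 35 nociceptor excitability channels. The part of depth in these shifts was not tested. Atf3, a transcription factor induced by axotomy, averaged 92.8 ± 12.1 in sham, 136 ± 26.8 in SCI and 119 ± 35.7 in naïve mice (SD, n = 5 each), with a difference of surgery from naïve of -0.06 (SE 0.14).

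Sprr1a, a growth-cone protein of regenerating axons, had 42.5, 0, 20.4, 22.1 and 1.58 in sham mice and 1.13, 23.4, 37.6, 20.4 and 57.6 in SCI mice, against 0.791, 0.649, 0, 22.7 and 7.45 in naïve mice. High and low libraries stood in every group, and its difference of 1.86 had a standard error of 0.93 (limma adjusted p = 0.429). Tubb6, a tubulin, differed by 0.47, Sema6a by 0.49 and Gadd45a, a DNA damage response gene, by 0.36, with almost the same values in sham and SCI mice for Tubb6 (0.49 and 0.45). Tubb6 and Sema6a were both 0.27 with log2 reads as a term, and without naïve 1 and naïve 4 they were 0.34 and 0.28, where neither reached an unadjusted p of 0.05. Bdnf, a neurotrophin, had 60.1, 62.2, 57.3, 61.6 and 59.1 in sham mice, 69.9, 79.9, 83.4, 74.4 and 79.9 in SCI mice, and 52.2, 45.4, 43.8, 69.4 and 75.6 in naïve mice. Its SCI minus sham difference was 0.36 with an unadjusted interval of 0.09 to 0.63, although no gene passed the adjusted limma test of SCI against sham (smallest adjusted p = 0.623), while its difference of surgery from naïve was 0.28.

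Of the lists of stress after surgery, glucocorticoid genes lay near the median of all genes and immediate early genes below it. Glucocorticoid receptor and target genes had 13 of 22 positive (all genes: 75.5%) and a median of 0.10. At an unadjusted p under 0.05, 1 was higher (all genes: 9.99%), Nr3c2, the mineralocorticoid receptor, at 0.39. Nr3c2 was 0.15 with log2 reads as a term and 0.19 without naïve 1 and naïve 4, and reached an unadjusted p of 0.05 in neither. Fkbp5, a glucocorticoid-induced chaperone, averaged 70.8 ± 8.33 in sham, 77.5 ± 8.02 in SCI and 69.2 ± 11.1 in naïve mice (SD, n = 5 each). Immediate early genes had 21 of 28 negative, against 24.5% of all genes, and a median of -0.16. Fos was the 1 member at an unadjusted p under 0.05, at -0.39 and at -0.04 with log2 reads as a term. In that fit 24 of the 28 were negative (all genes: 43.8%), 3 were lower at an unadjusted p under 0.05 (all genes: 1.76%) and the median was -0.06 beside 0.02. With edgeR 26 were negative (all genes: 45.3%) and 10 lower at an unadjusted p under 0.05 (all genes: 3.68%). Without naïve 5, 12 were lower at an unadjusted p under 0.05 (all genes: 5.99%) and 6 at an adjusted p under 0.05 (1.65%).

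Core clock genes had 6 of 18 positive (all genes: 75.5%) and 12 negative. At an unadjusted p under 0.05, 3 were higher (all genes: 9.99%) and 0 lower. Arntl (0.72), which encodes BMAL1, and Rora (0.41) were among the higher ones. Neither Arntl nor Rora reached an unadjusted p of 0.05 with log2 reads as a term. In that fit 15 of 18 members were negative (all genes: 43.8%), with a median of -0.19. Without naïve 1 and naïve 4, 14 were negative (all genes: 41.2%), with a median of -0.17. No member had an unadjusted p under 0.05 in either fit. Integrated and ER stress genes had a median of -0.02, interferon response and class I genes of 0.08, hypoxia and glycolysis genes of -0.05, cholesterol synthesis genes of -0.06 and synaptic vesicle genes of -0.05. Nociceptor excitability channels had 1 higher and 2 lower of 35 at an unadjusted p under 0.05 and a median of 0.01, and inflammatory mediator receptors 1 higher and 1 lower of 24 and a median of 0.02. Neurotrophic factor receptors and ERK feedback genes had 2 higher and 2 lower of 22 and a median of 0.01. Beside these counts, 9.99% of all genes were higher and 1.36% lower.

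**Figure D5:**
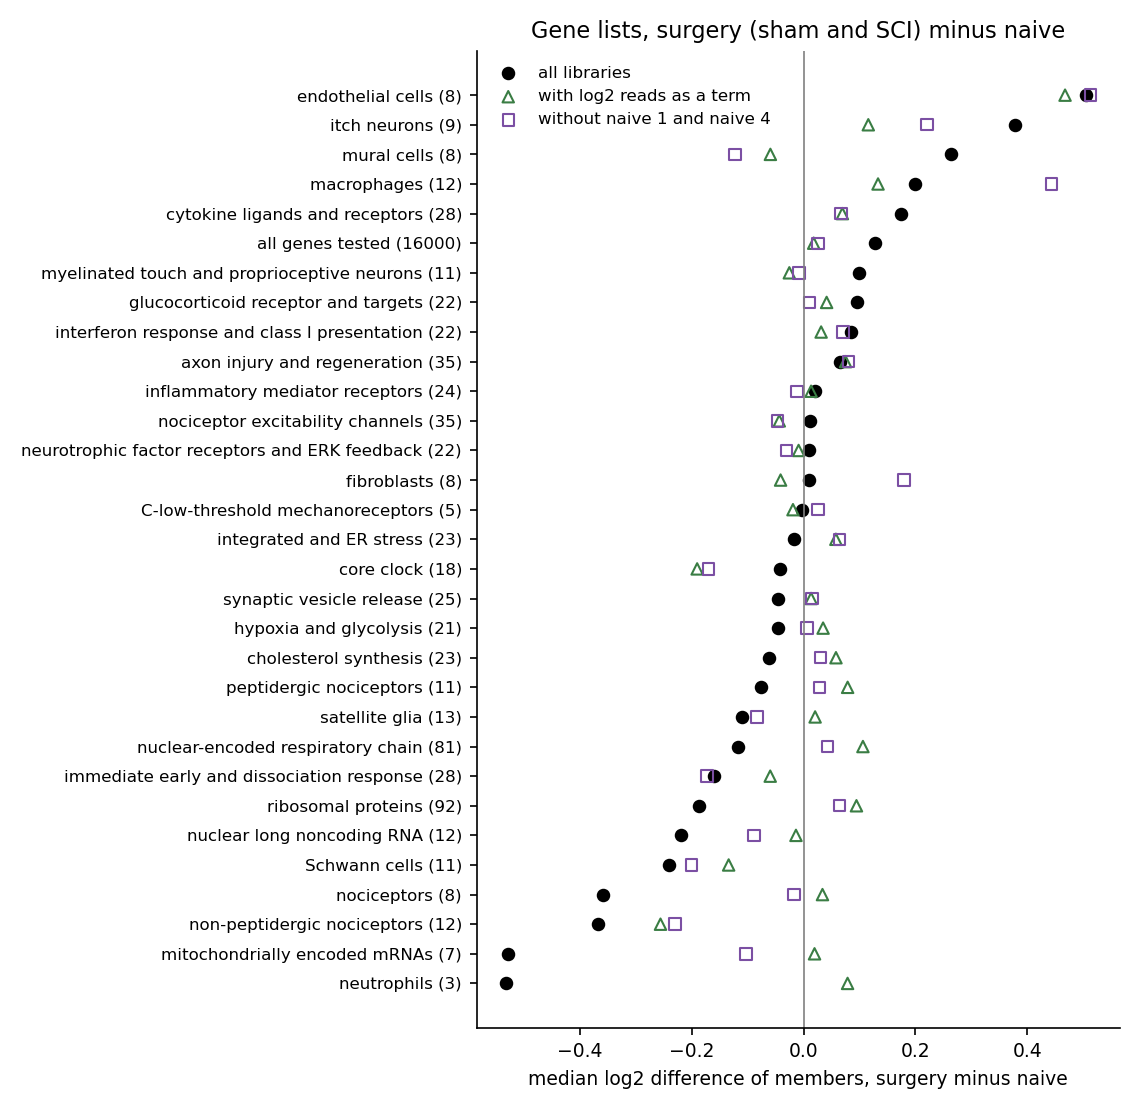
Median log2 difference of surgery minus naïve over the tested members of each gene list (number in brackets), in all libraries, with log2 reads as a term and without naïve 1 and naïve 4. Non-peptidergic nociceptor genes keep a negative and endothelial genes a positive median in all 3 fits, and mitochondrially encoded mRNAs move from -0.53 to 0.02 with the depth term.

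Among markers of other cells in the sort, all tested members differed in 1 direction in 2 lists of over 3 genes. Endothelial genes were positive for 8 of 8 tested of 9 listed, against 75.5% of all genes. Of these, 2 had an unadjusted p under 0.05 (all genes higher: 9.99%), and the median was 0.51. Their summed level was 41.6, 48.8, 30.2, 30.1 and 44.7 in sham mice and 52.6, 26.7, 31.0, 31.0 and 34.2 in SCI mice, against 26.9, 22.4, 21.9, 18.3 and 33.9 in naïve mice, with naïve 5 and naïve 1 inside the surgery range. Cdh5, the endothelial cadherin, had 2.13, 6.91, 0.393, 0.362 and 1.58 in sham mice and 4.24, 1.91, 1.32, 1.03 and 1.05 in SCI mice, against 0.791, 0, 0.413, 0 and 0.844 in naïve mice, which is a few reads per library. The median of the list was 0.47 with log2 reads as a term and 0.51 without naïve 1 and naïve 4, but 0.18 with quantile normalization, where 0 of the 8 genes had an unadjusted p under 0.05 (all genes: 2.83% higher).

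Schwann cell genes were negative for 11 of 11 (all genes: 24.5%), 3 of them at an unadjusted p under 0.05 (1.36%), with a median of -0.24. With log2 reads as a term 9 were negative (all genes: 43.8%), 3 of them at an unadjusted p under 0.05 (1.76%), with a median of -0.13. Without naïve 1 and naïve 4, 11 were negative (all genes: 41.2%), 1 of them at an unadjusted p under 0.05 (0.416%), with a median of -0.20. Satellite glia genes had a median of -0.11, and of 0.02 with log2 reads as a term. At an unadjusted p under 0.05, 3 of 13 were lower in the plain comparison (all genes: 1.36%) and 1 higher (9.99%). The part of these cells in the neuronal differences was not tested.

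Macrophage genes were positive for 10 of 12 (all genes: 75.5%), with 0 at an unadjusted p under 0.05, a median of 0.20 and sums of 28.9 to 250 in sham, 30.0 to 170 in SCI and 30.9 to 281 in naïve mice. Mural cell genes had a median of 0.26 that was -0.06 with log2 reads as a term, and fibroblast genes a median of 0.01. Neutrophil genes had 3 tested of 9, with the defining Cxcr2 at 0 in all libraries, and lymphocyte genes (Cd79a and Cd4) and muscle genes (Acta1 and Mylpf) had 2 tested each and erythrocyte genes 0.

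Among the other neuron types, itch neuron genes were positive for 7 of 9 (all genes: 75.5%) with 0 at an unadjusted p under 0.05, and their median of 0.38 was 0.12 with log2 reads as a term. Peptidergic nociceptor genes had a median of -0.08, C-low-threshold mechanoreceptor genes of -0.0028 and myelinated neuron genes of 0.10. Calb1, a calcium-binding protein of some myelinated neurons, had 13.2, 17.9, 12.6, 22.5 and 22.6 in sham mice and 7.64, 7.16, 4.28, 10.3 and 6.98 in SCI mice, against 1.58, 6.81, 6.20, 0.731 and 10.7 in naïve mice. Sham libraries lay above all SCI and all naïve libraries, and SCI minus sham was -1.18 with a 95% interval of -2.05 to -0.31. Its difference from naïve was 1.88 in sham and 0.70 in SCI mice, and 1.29 for surgery as a whole, which was 0.72 with log2 reads as a term and 0.48 without naïve 1 and naïve 4, where it did not reach an unadjusted p of 0.05.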

How the data were processed

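Each of the 15 libraries came from 1 mouse, and all were sequenced in 1 run (single-end, 75 nt, stranded mRNA kit). The authors aligned reads with HISAT2 to mm10 and counted them per gene with HTSeq; versions are not given in the sources used here. Per the file headers the deposited signal values are RPKM, but each is a whole read count divided by 1 constant per library (0 of 813480 values were not whole at a tolerance of 1e-06), so 100% of values gave whole reads. Lines without a gene name (27, at most 0.21% of reads) were left out. The authors' group means were not used.

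Values were analysed as log2(value + 1), a scale that understates changes of low genes, for the 16000 genes that averaged 1 or more. limma 3.58.1 (R 4.3.3, eBayes with trend) fitted 1 mean per group, tested (sham + SCI)/2 minus naïve, and p-values were adjusted by Benjamini-Hochberg over all genes at 0.05. Single genes were also tested by exact permutation, whose p describes genes already picked by their limma p or lack of overlap. edgeR 4.0.16 and DESeq2 1.42.0 were run on the recovered reads. The test was also run on simulated data that kept the library sizes but held no shift of genes with depth. That run therefore cannot show how the test behaves under such shifts. Named genes are the 10 with the smallest p in each direction and a mean of at least 5, those without overlap, and the 2 per list with the smallest p; Mrgprd, Ret, Plxnc1, Lpar3, Agtr1a, Runx1, Tgfbr1, Tlr4, Ccl2, Il6st, Atf3, Sprr1a, Gadd45a, Bdnf and Fkbp5 were added after their values were seen. Some listed genes are not reported here, though list counts, medians and sums include them. The comparison and the lists were chosen with earlier results of these data known. Positions are from GENCODE M21. Alternatives were pseudocounts, filters, scalings, weights, a depth term, a replicate block and leaving out libraries.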

Additional observations from a re-analysis of the deposited data

Results flagged for a closer look

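Among 234 groups of 5 libraries (78 named genes in sham, SCI and naïve mice), 28 held a library that stood apart from the other 4, by a gap over 0.71 of the group's range. Chance gives about 1 in 20 such groups.

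Sham 2, the shallowest sham library, accounted for 11 of them. It was the highest sham library for Scn10a (902, others 586 to 633), Scn11a (523), Syn1 (403), Piezo2 (644), Calca (326), mt-Nd2 (251), Aldoa (406), Apoe (465), Pmp22 (364) and Cdh5 (6.91), and the lowest for Rps6kb1 (82.9). The other sham outliers were Adcy2 in sham 4 (131, lowest), Prkar2b in sham 3 (127, lowest), Col3a1 in sham 1 (141, highest), and Ngp (0.181) and S100a9 (0.724) in sham 4.

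In SCI mice, SCI 4 was lowest for Gng2 (181) and highest for Prkar2b (165), and SCI 2 was lowest for Neurl1b (7.63) and highest for Cx3cr1 (12.2). Cdh5 was highest in SCI 1 (4.24). SCI 3 was highest for Gfap (2.64) and for the neutrophil genes Ngp (3.62) and S100a9 (5.602). In naïve mice, naïve 4 was lowest for Adcy2 (102), naïve 3 highest for Cx3cr1 (4.55), and naïve 1 highest for Ngp (19.0) and S100a9 (22.9), both at 0 in the 4 other naïve libraries.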

How the results depend on the processing

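Of the 78 named genes, 65 kept their sign in every alternative that gave them a value. The sign turned for Piezo2 with quantile normalization (0.021), for S100a9 with library quality weights (0.019), for Atp5d (0.011), Tac1 (0.0070) and Pdgfrb (-0.014) without naïve 1 and naïve 4, and for Pdgfrb without naïve 1, 4 and 5 (-0.016). With log2 reads as a term it turned for mt-Nd4 (0.0029), Calca (0.028), Aldoa (0.049), Eno1 (0.027), Atp5d (0.023), Tac1 (0.079) and S100a9 (0.085). Among the lymphocyte and muscle genes it turned for Cd79a with log2 reads as a term (-0.11), with values beyond 50% of the group mean left out (-0.055), without naïve 1 and naïve 4 (-0.17) and without these and sham 2 (-0.11). It turned for Cd4 with weights (0.090), with such values left out (0.050) and without naïve 3 (0.12; -0.23 to 0.12 with 1 library left out), and for Acta1 with weights (0.33), without naïve 1 (0.045; -0.44 to 0.045 with 1 library left out), without naïve 1 and naïve 4 (0.10), without these and sham 2 (0.13) and without naïve 1, 4 and 5 (0.27). It turned for Mylpf with quantile normalization (-0.20), log2 reads as a term (-0.070) and weights (-0.25), without naïve 4 (-0.097; -0.097 to 0.29 with 1 library left out), without naïve 1 and naïve 4 (-0.19), without these and sham 2 (-0.14) and without naïve 1, 4 and 5 (-0.47). The cause was not tested.

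DESeq2 left some genes, Grik1 among them, without an adjusted p. Adjusted calls (higher/lower) of surgery against naïve were 0/0 except with library quality weights (212/17), with values beyond 50% of the group mean left out (227/72), which removes the spread it then tests, and over the libraries left out 1 at a time (0 to 644 higher, 0 to 264 lower, all without naïve 5). For sham against naïve these were 2686/945, 530/112, and 0 to 1212 higher and 0 to 540 lower. SCI against naïve had 1 higher with weights, 26/18 with such values left out and 1 higher without naïve 1, 4 and 5. SCI against sham had 0/4 with DESeq2, 1023/2037 with weights, 4/94 with such values left out and 385/709 without naïve 1, naïve 4 and sham 2, an alternative chosen after seeing the data, as was the one without naïve 1, 4 and 5.

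At an unadjusted p under 0.05, 1599 genes were higher and 218 lower (88% higher). Counts were 453/426 with quantile normalization (51.5% higher), 927/434 with TMM (68.1%), 372/589 with edgeR (38.7%), 330/678 with edgeR on DESeq2 size factors (32.7%), 302/791 with DESeq2 (27.6%), 236/281 with log2 reads as a term (45.7%), 2988/834 with weights, 2429/454 with such values left out, 265/67 without naïve 1 and 4 and 544/79 without these and sham 2. Without a filter 347 were lower. Single libraries left out gave 738 to 4048 higher and 62 to 957 lower, with 807/85 without naïve 1, 738/62 without naïve 4 and 2947/652 without sham 2. The median of all genes, 0.13, was 0.01 with quantile normalization, so the direction of the whole depends on the scaling.

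The same counts for sham against naïve were 2141/510. They were 636 higher with quantile normalization, 952/1138 with TMM, 619/1100 with edgeR, 609/1121 with edgeR on DESeq2 size factors, 531/1287 with DESeq2, 148/171 with log2 reads as a term, 4839/1418 with weights, 3303 higher with such values left out, 390/24 without naïve 1 and 4, and 1077 to 4511 higher and 98 to 1138 lower with 1 library left out. For SCI against naïve (597/127) they were 1023/279 with no filter, 69 lower with a mean above 10, 328/365 with quantile normalization, 199 lower with TMM, 275/232 with edgeR, 233/275 with edgeR on DESeq2 size factors, 179/291 with DESeq2, 372/377 with log2 reads as a term, 1314/386 with weights, 1155/474 with such values left out, 185/261 without naïve 1 and 4, 385/581 without these and sham 2, and 362 to 2096 higher and 85 to 479 lower with 1 library left out. For SCI against sham (104/519) they were 259/1104 with no filter, 309 lower with a mean above 10, 328 higher with quantile normalization, 278 higher with TMM, 359 higher with edgeR, 257 higher with edgeR on DESeq2 size factors, 295 higher with DESeq2, 246/281 with log2 reads as a term, 1693/4152 with weights, 291/1619 with such values left out, 244/948 without naïve 1 and 4, 1261/3311 without these and sham 2, 392/1090 without naïve 1, 4 and 5, and 40 to 768 higher and 307 to 1610 lower with 1 library left out.

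Genes without overlap (4 higher, 1 lower) numbered 8 higher with no filter, 2 higher with a mean above 10, 1/3 with quantile normalization, 7/3 with TMM, 15/7 without naïve 1 and 4, 39/12 without these and sham 2, 725/115 without naïve 1, 4 and 5, and 4 to 259 higher and 1 to 35 lower with 1 library left out. Replicate numbers did not pair the mice (correlations of same-numbered deviations from -0.22 to 0.22 over 15 pairs). With the replicate block 0 genes passed and 139 were lower at an unadjusted p under 0.05.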
